A study of Mus musculus with 6 samples.

Results

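The genes described here are 10 members of the bone morphogenetic protein (BMP) pathway: the receptor genes Bmpr1a and Bmpr2, the pseudoreceptor gene Bambi, the signal-carrying Smads Smad1 and Smad5, the inhibitory Smad6, and the Id genes Id1, Id2, Id3 and Id4. They were chosen by name, as all probe sets whose platform annotation gives exactly 1 gene, that gene being on this list. The 10 genes had 25 probe sets, out of 18193 genes with a singly named probe set on the array. Transcripts were measured in the whole brain of E18.5 mouse embryos, late in gestation, 3 labelled Foxf2 mutant and 3 labelled wild type, all on a C57/bl6 background, with 1 Affymetrix array per sample. The labels do not describe the mutant allele, and nothing in them says whether an array held 1 embryo or a pool, or whether embryos shared a litter. The tests below therefore take these 6 samples as their units, and say nothing of the spread between litters.

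BMP ligands bind a complex of type I receptors, such as the one encoded by Bmpr1a, and type II receptors, such as the one encoded by Bmpr2. The type II receptor activates the type I receptor, which phosphorylates Smad1 and Smad5, and these enter the nucleus with Smad4. Id genes and Smad6 are well-known targets of BMP Smads. Id proteins have a helix-loop-helix domain but no DNA-binding region, so they hold other helix-loop-helix factors away from DNA. In the developing brain they are known from dividing progenitors and glia, and Id1 and Id3 also from blood vessels.

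The promoters of 4 BMP target genes are shown first, since Id genes and Smad6 are well-known BMP targets; pathway activity itself was not measured. Windows of 8 of the 10 members were searched in a RefSeq promoter table of build GRCm38.p6. Id1 had no entry in it. Bambi was left out because the search of members skipped its chromosome. Each stretch runs 5′ to 3′ on the gene's own strand, from 250 bases before the annotated start to 10 bases after it, 260 bases in all. Capitals mark a match to GGCGCC, a GC-rich motif of BMP Smads, or to GTCTAGAC, the palindromic Smad binding motif. These were searched on both strands together with the forkhead motif GTAAACA.
Id2 (GRCm38.p6, chr12:25096083-25096342, minus strand): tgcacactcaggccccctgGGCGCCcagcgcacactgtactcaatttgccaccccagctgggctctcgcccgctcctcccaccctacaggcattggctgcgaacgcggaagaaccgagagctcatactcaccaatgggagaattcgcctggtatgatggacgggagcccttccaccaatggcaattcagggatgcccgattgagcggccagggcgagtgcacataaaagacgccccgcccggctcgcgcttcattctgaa
Id3 (GRCm38.p6, chr4:136143572-136143831, plus strand): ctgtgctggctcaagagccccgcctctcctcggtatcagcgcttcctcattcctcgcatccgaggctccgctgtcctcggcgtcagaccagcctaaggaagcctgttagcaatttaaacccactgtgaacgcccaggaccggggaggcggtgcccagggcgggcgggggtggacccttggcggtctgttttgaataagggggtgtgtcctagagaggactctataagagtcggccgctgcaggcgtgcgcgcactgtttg
Id4 (GRCm38.p6, chr13:48260866-48261125, plus strand): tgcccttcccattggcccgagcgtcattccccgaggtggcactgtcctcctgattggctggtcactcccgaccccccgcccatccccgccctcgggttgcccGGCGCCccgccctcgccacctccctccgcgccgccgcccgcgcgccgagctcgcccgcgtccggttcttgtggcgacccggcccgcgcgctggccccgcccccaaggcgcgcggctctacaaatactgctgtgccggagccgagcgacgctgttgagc
Smad6 (GRCm38.p6, chr9:64022050-64022309, minus strand): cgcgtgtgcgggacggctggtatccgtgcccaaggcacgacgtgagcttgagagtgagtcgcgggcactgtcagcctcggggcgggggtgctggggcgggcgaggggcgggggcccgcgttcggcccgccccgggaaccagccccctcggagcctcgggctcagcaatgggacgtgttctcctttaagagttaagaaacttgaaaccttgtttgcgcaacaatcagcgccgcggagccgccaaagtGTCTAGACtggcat
The GGCGCC motif was in a window of 5 of the 8 searched members. It was in 9.96% of all 32851 promoter windows of this length in the table, here with no chromosome skipped. It stood once in Id2, its first base 231 bases before the start, and once in Id4, 148 bases before it. The others were both receptor genes, Bmpr1a with 198 and Bmpr2 with 105 bases before the start, and 1 of 3 windows of Smad5, 19 bases before it. The GTCTAGAC palindrome stood once in Smad6, across the start site, and in 0.177% of all windows. Id3 and Smad1 held none of the motifs in this window. The forkhead motif, present in 3.3% of all windows, was in none of the searched members' windows. A match is a string of letters and does not show binding.

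Values are MAS5 intensities, the summary of a probe set on a linear scale, and differences are Foxf2 mutant minus wild type on the scale of log2(intensity + 16), which understates the change of dim genes. Affymetrix probe set names end in _at where the probes match 1 transcript, in _a_at where they match several transcripts of 1 gene, and in _s_at where they match transcripts of several genes. Differences were tested with limma across all probe sets, with Benjamini-Hochberg adjustment over the 27022 with a mean above about 13.2 and a threshold of 0.05. Medians over all probe sets were 24.3 to 25.5 on mutant arrays and 23.1 to 23.6 on wild-type arrays. The 10 neuronal markers summed to 16854 to 17177 on mutant arrays and 16427 to 16895 on wild-type arrays, with 0 past the threshold. At an unadjusted limma p under 0.05 there were 3 of them, all higher, Tbr1 at 0.36, Neurod6 at 0.32 and Gad1 at 0.31. Foxf2 itself read 8.06, 3.31 and 7.57 in mutant brains and 18.6, 24.4 and 13.8 in wild-type brains on its brighter probe set, which was too dim to be tested. The labels do not say where the mutation lies relative to it. The 7 skeletal muscle markers summed to 1478 on mutant array 3 and to 94.98 to 106.5 on the wild-type arrays, and the 5 measured pituitary markers to 1990 on wild-type array 3 and 277 on mutant array 3. The Y-linked Eif2s3y read 260 on mutant array 2 and at most 2.12 on the others. The ratio of 3′ to 5′ probe sets of the Gapdh control was 0.686 ± 0.00359 on mutant arrays and 0.726 ± 0.0209 on wild-type arrays (SD, n = 3 each; exact two-sided permutation p = 0.1, the smallest possible).

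None of the BMP pathway members passed the threshold. Of the 24 member probe sets bright enough to be tested, limma called 0 at an adjusted p of 0.05, and the lowest adjusted p was 0.111. Of all tested probe sets, 0.389% were called, 0.366% higher and 0.0222% lower in the mutant. At an unadjusted p under 0.05 there were 5 member probe sets, 2 higher and 3 lower in the mutant, which is 20.8% of the 24 and compares with 13.6% of all tested probe sets, 7.76% higher and 5.79% lower. These 5 were 2 probe sets of Id2, 1 of Id4 and 2 of Smad5. The groups did not overlap for 5 member probe sets, or 20.8%, and for 20.2% of all tested, so that this share lay at the background. By direction, 3 lay higher and 2 lower in the mutant, against 10.9% and 9.38% of all tested. The median difference of the 24 was -0.03 log2 units, against -0.01 over all tested probe sets. With each array centred on its median, the count at an unadjusted p under 0.05 became 8, 2 higher and 6 lower, against 16.6% of all tested, and 9 did not overlap, against 23.2%. This centring lowered every difference, and of all 27022 tested probe sets 9770 lay above 0 with it and 13130 without it. The 16.6% is not split by direction here, so the 6 lower have no background of their own.

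**Figure D1:**
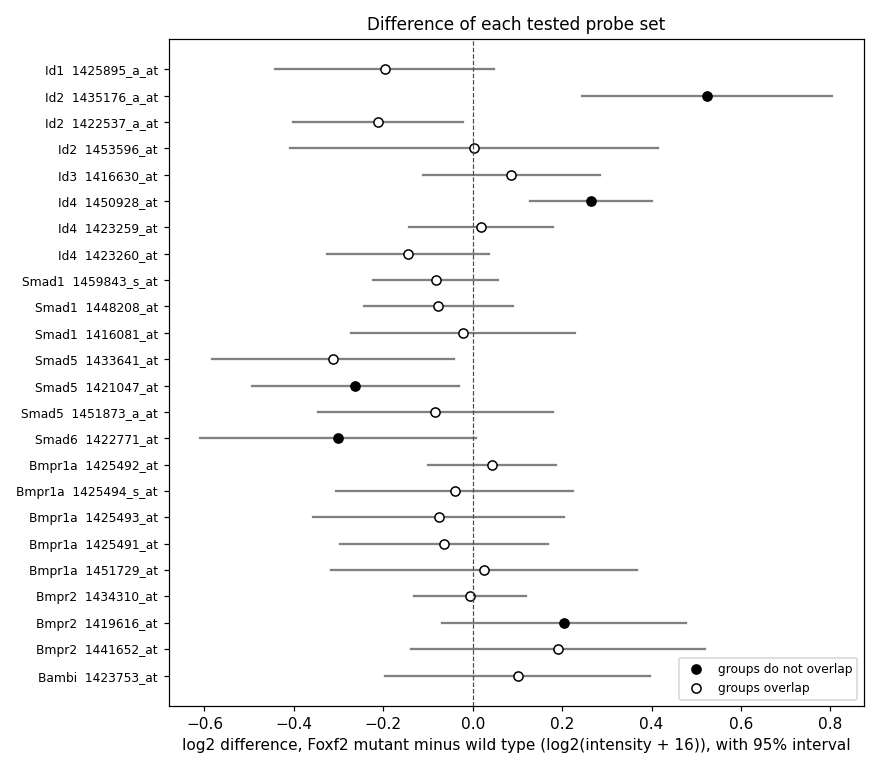
Each row is a tested probe set of a BMP pathway member, the horizontal axis is the log2 difference of Foxf2 mutant minus wild type, and the bar is its 95% interval from limma. Filled points mark the 5 probe sets whose groups did not overlap, and the 3 probe sets of Id2 lie at 0.52, -0.21 and 0.00.

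Id2 is the helix-loop-helix inhibitor with the largest difference among the members, and its probe sets had estimates of both signs. The brightest, 1435176_a_at, read 1006, 1093 and 1306 in mutant brains and 673, 770 and 915 in wild-type brains. The lowest mutant array was brighter than the highest wild-type array. The means were 1135 ± 154 in mutant and 786 ± 122 in wild-type brains (SD, n = 3 each), a ratio of 1.44 and a log2 difference of 0.52 ± 0.12 (SE; limma adjusted p = 0.119). The probe set 1422537_a_at had an estimate below 0, with 556, 594 and 636 in mutant brains and 620, 719 and 740 in wild-type brains. Here the highest mutant array lay above the lowest wild-type array. The log2 difference was -0.21 ± 0.08 (SE; limma unadjusted p = 0.0329, adjusted p = 0.317). On the dim probe set 1453596_at the arrays read 29.6, 22.4 and 38.4 in mutant and 32.8, 21.1 and 36.3 in wild-type brains, and the groups covered the same range.

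The ratio between the Id2 probe sets was also compared between the groups. The log2 ratio of the brightest probe set over the mean of the other 2 was 2.66, 2.86 and 2.81 on mutant arrays and 1.97, 2.25 and 2.23 on wild-type arrays. These groups did not overlap, and they differed by 0.63. Such a ratio did not overlap in 24% of all 6199 genes with several tested probe sets. An exact two-sided permutation test over the arrays gave p = 0.1, the smallest that 3 against 3 allows, and p = 0.2 after Benjamini-Hochberg adjustment over the 6 members with several tested probe sets. Both bright probe sets are of the kind that matches several transcripts of 1 gene, and the files do not say where in the gene they lie. The direction of Id2 as a gene is thus not settled by these arrays.

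Id4, an inhibitor known from neural progenitors and glia, had 3 bright probe sets. On 1450928_at it read 1998, 2052 and 1977 in mutant brains and 1749, 1571 and 1697 in wild-type brains. All mutant arrays were higher, within a narrow range. The means were 2009 ± 38.7 in mutant and 1672 ± 91.8 in wild-type brains (SD, n = 3 each), a ratio of 1.20 and a log2 difference of 0.26 ± 0.06 (SE; limma adjusted p = 0.111). Next came 1423259_at, with 1334, 1256 and 1242 in mutant and 1361, 1160 and 1266 in wild-type brains. The groups overlapped, and the log2 difference of 0.02 had a 95% interval of -0.14 to 0.18. Lower values in the mutant were read on 1423260_at, with 583, 551 and 580 against 694, 567 and 644 in wild-type brains, also with overlap, and its log2 difference was -0.15 ± 0.08 (SE).

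The log2 ratio of the brightest Id4 probe set over the mean of the other 2 was 1.16, 1.28 and 1.20 on mutant arrays and 0.84, 0.94 and 0.90 on wild-type arrays. The groups did not overlap, and the difference of 0.33 had an exact permutation p of 0.1 (0.2 adjusted over the 6 members). The upward reading of Id4 therefore rests on 1 of its 3 probe sets.

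Id1 and Id3, the Id genes known from blood vessels, had 1 probe set each, and neither passed the threshold. Id1 read 167, 196 and 148 in mutant brains and 200, 210 and 180 in wild-type brains. The mutant arrays were lower on average but 1 of them lay within the wild-type range. The means were 170 ± 24.5 in mutant and 197 ± 15.1 in wild-type brains (SD, n = 3 each), with a log2 difference of -0.20 and a 95% interval of -0.44 to 0.05 (limma adjusted p = 0.468). Id3 read 254, 284 and 267 in mutant and 257, 275 and 225 in wild-type brains. Its groups overlapped, with a log2 difference of 0.09 and an interval of -0.11 to 0.28 (limma adjusted p = 0.718). The intervals of Id1 and Id3 overlap, and whether the genes differ in their response was not tested.

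**Figure D2:**
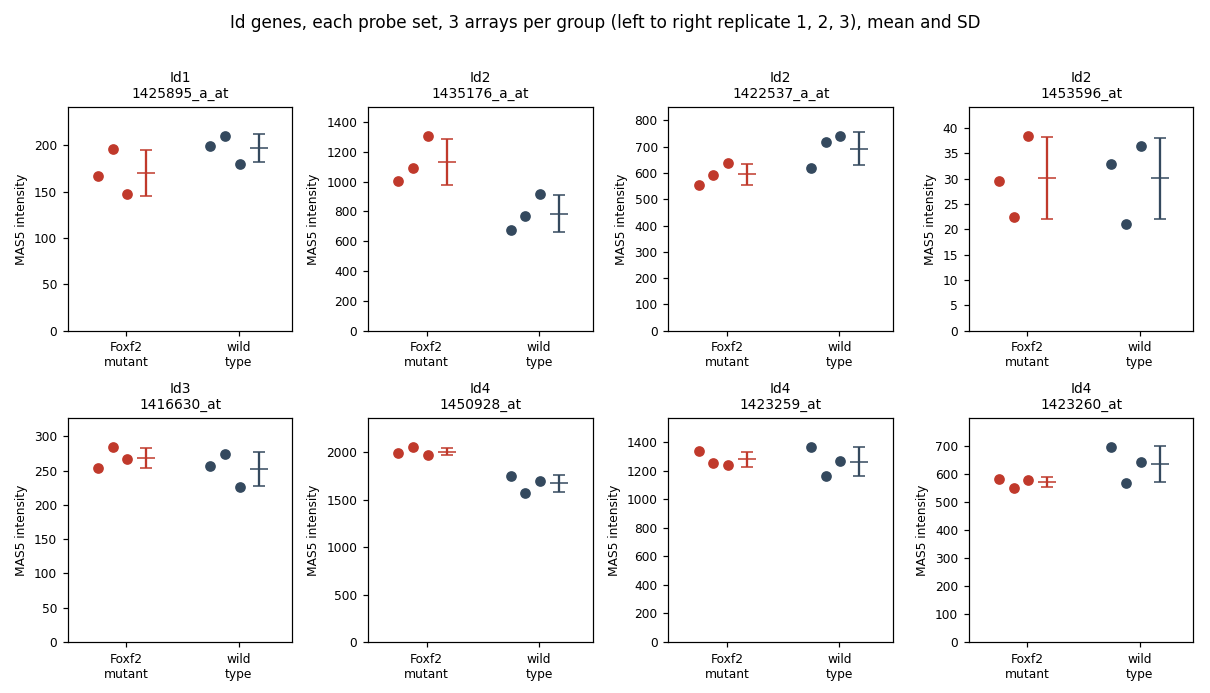
Each panel is 1 probe set of an Id gene, with MAS5 intensity from 0 on the vertical axis; points are the 3 arrays of each group, Foxf2 mutant left and wild type right, and bars are mean and SD. The groups separate on 1435176_a_at of Id2 and 1450928_at of Id4 and overlap on the other 6.

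The signal-carrying Smads, Smad1 and Smad5, had differences below 0 on all 6 tested probe sets, also with quantile normalization and median centring. Of all 27022 tested probe sets 13130 lay above 0, or 12250 with quantile normalization and 9770 with median centring. Median centring lowered every difference, so a sign below 0 was kept under it in advance. Smad1 1416081_at turned without mutant array 2 or wild-type array 1, and 1448208_at without both arrays of replicate 3. Smad5 read 277, 216 and 199 in mutant and 316, 269 and 278 in wild-type brains on 1433641_at. Mutant array 1 lay within the wild-type range and the other mutant arrays below it. The means were 230 ± 41.5 in mutant and 288 ± 25.0 in wild-type brains (SD, n = 3 each), a ratio of 0.800 and a log2 difference of -0.31 ± 0.12 (SE; limma unadjusted p = 0.0284, adjusted p = 0.303). On 1421047_at Smad5 read 102, 80.8 and 92.5 in mutant and 111, 107 and 120 in wild-type brains. There the groups did not overlap, with a log2 difference of -0.26 ± 0.10 (SE; limma unadjusted p = 0.0304, adjusted p = 0.311). On the dimmest Smad5 probe set, 1451873_a_at, the 3 mutant arrays read 49.1 to 49.7, inside the wild-type range of 45.8 to 58.1.

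The 3 Smad5 probe sets had estimates of 1 sign, as did the 3 of Smad1. The log2 ratio of the brightest Smad5 probe set over the others was 1.54 ± 0.20 on mutant arrays and 1.68 ± 0.12 on wild-type arrays (SD, n = 3 each; exact permutation p = 0.4). Leaving out mutant array 2 or 3 or wild-type array 1 brought both unadjusted p-values of Smad5 above 0.05, to 0.0509 at the lowest, with differences that stayed below 0.

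Smad1, the partner of Smad5 in carrying the signal, had differences near 0. Its probe set 1459843_s_at read 626, 582 and 576 in mutant and 648, 617 and 627 in wild-type brains, with overlap. The log2 difference was -0.08, with a 95% interval of -0.22 to 0.06. On 1448208_at Smad1 read 391 to 434 in mutant and 413 to 469 in wild-type brains, with a log2 difference of -0.08 and an interval of -0.24 to 0.09. On 1416081_at it read 96.6 to 128 in mutant and 105 to 121 in wild-type brains, with a log2 difference of -0.02 and a wider interval of -0.27 to 0.23. Whether Smad5 and Smad1 differ from each other in their response was not tested.

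Smad6 encodes an inhibitory Smad that BMP signals induce and that feeds back on the receptors, and it is known from endothelium. Its single, dim probe set read 25.4, 20.2 and 22.5 in mutant brains and 30.2, 27.8 and 37.4 in wild-type brains. The groups did not overlap, with every mutant array dimmer. The means were 22.7 ± 2.65 in mutant and 31.8 ± 5.05 in wild-type brains (SD, n = 3 each), a ratio of 0.714. The log2 difference was -0.30 ± 0.14 (SE; limma unadjusted p = 0.0544, adjusted p = 0.380). Since the intensity is near the offset of 16, the size depends on it, and the difference was -0.46 with an offset of 1 and -0.14 with an offset of 64. Beside this, the 10 endothelial markers summed to 966 to 1110 on mutant arrays and 1327 to 1412 on wild-type arrays, without overlap. Of these markers 0 passed the threshold, 7 had an estimate below 0 and 3 above, and none averaged below an intensity of 16. At an unadjusted p under 0.05 there were 3, all lower, the blood-brain barrier genes Slco1c1 at -0.75 and Cldn5 at -0.43 and the VEGF receptor gene Kdr at -0.41. The general endothelial markers Cdh5, Emcn, Pecam1 and Tie1 had 0.29, 0.16, 0.02 and 0.00, all with overlapping groups. The remaining markers had estimates below 0, Tek at -0.26 and Esam at -0.12 without overlap and Flt1 at -0.16 with overlap. Without Slco1c1 and Cldn5 the sums were 535 to 562 on mutant arrays and 583 to 613 on wild-type arrays, still without overlap. The part of this in the Smad6 and Id1 values was not tested, and in whole-brain RNA fewer cells of a type and less RNA per cell cannot be told apart.

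Bambi encodes a receptor-like protein without a kinase domain that dampens BMP and TGF-beta signals, and is itself a BMP target. It read 48.0, 42.8 and 57.6 in mutant and 42.8, 41.2 and 50.8 in wild-type brains. The groups overlapped, with a log2 difference of 0.10 and a 95% interval of -0.20 to 0.40. Neither of the feedback inhibitors Smad6 and Bambi passed the threshold.

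**Figure D3:**
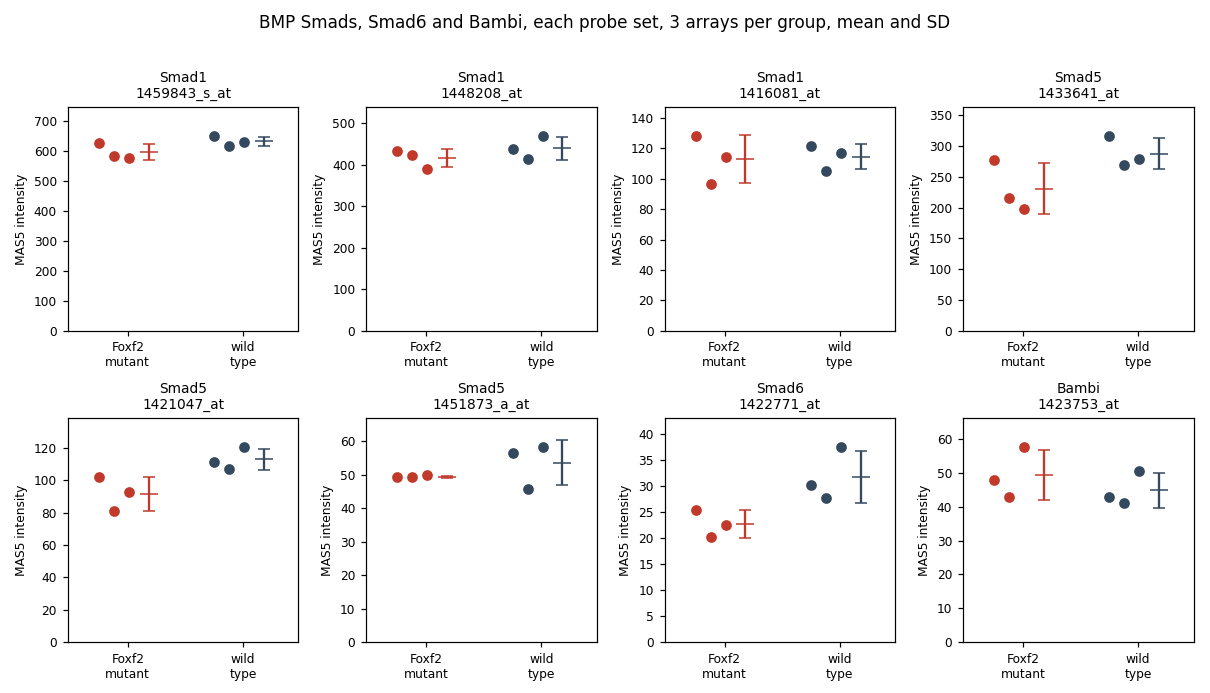
Each panel is 1 probe set of Smad1, Smad5, Smad6 or Bambi, with MAS5 intensity from 0 on the vertical axis; points are the 3 arrays of each group, Foxf2 mutant left and wild type right, and bars are mean and SD. The groups separate, with mutant arrays lower, on 1421047_at of Smad5 and on Smad6.

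The type I receptor gene Bmpr1a was measured by 6 probe sets, 5 of them tested, and all groups overlapped. The brightest, 1425492_at, read 338, 334 and 321 in mutant brains and 318, 321 and 324 in wild-type brains. One mutant array lay within the wild-type range, and the others were slightly brighter. The log2 difference was 0.04, with a 95% interval of -0.10 to 0.19 (limma adjusted p = 0.811). The other 4 tested probe sets had log2 differences from -0.08 to 0.03. On 1425494_s_at the range was 67.6 to 84.0 in mutant and 68.5 to 87.7 in wild-type brains, on 1425493_at 59.98 to 82.3 in mutant and 74.2 to 85.0 in wild-type brains, and on 1425491_at 58.4 to 64.4 in mutant and 59.9 to 69.1 in wild-type brains. The dimmest tested probe set, 1451729_at, read 10.6 to 17.7 in mutant and 9.98 to 17.5 in wild-type brains, and the untested 1445413_at stayed below 1 on every array.

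Bmpr2, the type II receptor gene, had a bright probe set without a difference and dim ones that read higher in the mutant. On 1434310_at it read 1047, 1056 and 1028 in mutant and 1026, 1034 and 1086 in wild-type brains. The log2 difference of -0.01 had the narrowest 95% interval among the members, -0.13 to 0.12. On 1419616_at Bmpr2 read 36.1, 35.0 and 31.8 in mutant and 28.3, 29.1 and 25.5 in wild-type brains. The groups did not overlap there, with a ratio of 1.24 and a log2 difference of 0.20 ± 0.12 (SE; limma adjusted p = 0.503). The remaining probe set, 1441652_at, read 24.0, 34.8 and 28.3 in mutant and 24.1, 19.4 and 26.8 in wild-type brains, with overlap and a log2 difference of 0.19. The log2 ratio of the bright probe set over the dim ones was 4.54, 4.40 and 4.50 on mutant arrays and 4.63, 4.72 and 4.71 on wild-type arrays, again without overlap (difference -0.20, exact permutation p = 0.1, adjusted p = 0.2). Its size followed the offset, from -0.30 with an offset of 1 to -0.10 with 64.

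**Figure D4:**
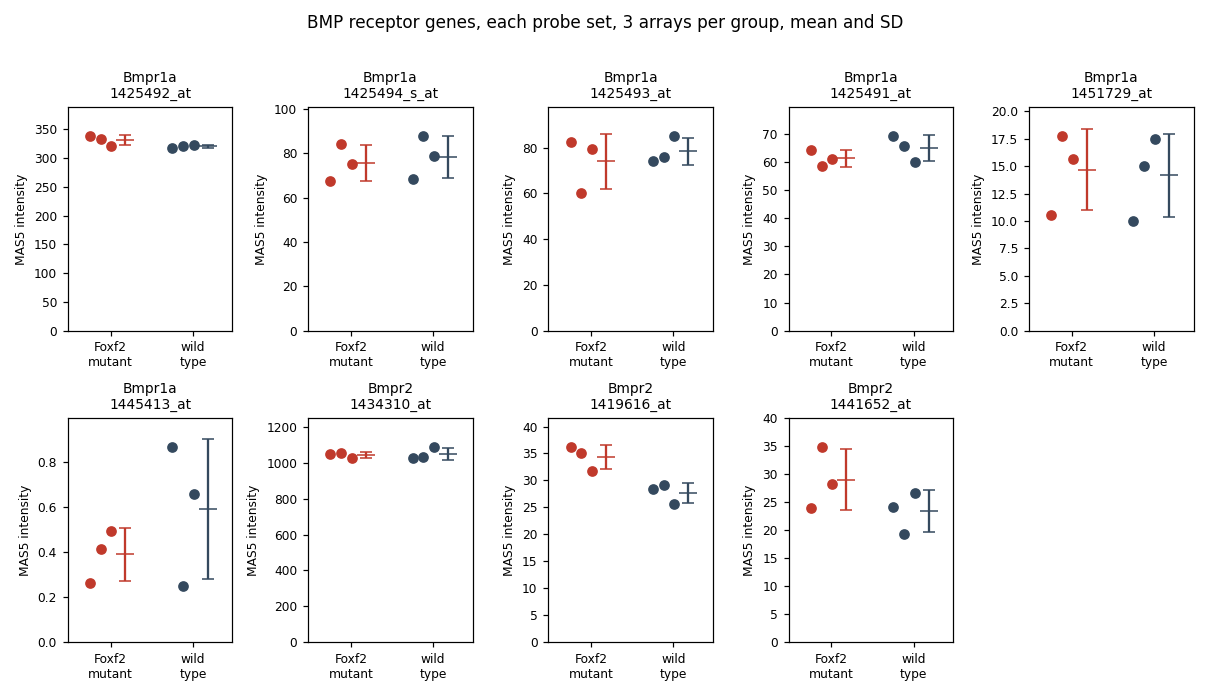
Each panel is 1 probe set of Bmpr1a or Bmpr2, with MAS5 intensity from 0 on the vertical axis; points are the 3 arrays of each group, Foxf2 mutant left and wild type right, and bars are mean and SD. The groups overlap on all 6 Bmpr1a probe sets and separate on 1419616_at of Bmpr2.

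The ratio between probe sets of 1 gene did not overlap between the groups in 3 of the 6 members with several tested probe sets, Id2, Id4 and Bmpr2. This is 50% of a small number, beside 24% of all genes compared in this way, and 0 of the 6 passed the threshold after adjustment. In Smad1, Smad5 and Bmpr1a these ratios overlapped, with differences of -0.03, -0.14 and 0.08 and exact permutation p-values of 0.6, 0.4 and 0.2.

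The rest of the pathway was described with 6 lists of 72 genes, each gene by its brightest singly named probe set. Of these, 57 were bright enough to be tested and 0 passed the threshold in limma. Counted at an unadjusted p under 0.05, 9 read higher in the mutant and 5 lower, beside 13.6% of all 12573 genes tested in this way, of which 951 were higher and 756 lower. The median difference of all these genes was -0.01.

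All 6 tested BMP ligand genes had a difference above 0, or 4 of 6 with each array centred on its median, and 0 passed the threshold. Their median was 0.24, or 0.18 with median centring, and 2 were at an unadjusted p under 0.05. Of all 27022 tested probe sets 13130 lay above 0, or 9770 with median centring. The median of all tested probe sets was -0.01, or -0.06 with median centring, so that centring lowered the list medians together with all others. Bmp5 read 53.4, 61.7 and 56.8 in mutant brains and 41.5, 37.9 and 43.5 in wild-type brains, without overlap (log2 difference 0.36, limma adjusted p = 0.214). Gdf2, the gene of the circulating ligand BMP9, read 18.2, 25.9 and 24.3 in mutant and 17.7, 8.42 and 16.4 in wild-type brains (log2 difference 0.37, limma adjusted p = 0.368). The summed intensity of the 8 measured ligand genes was 260 to 307 on mutant arrays and 207 to 251 on wild-type arrays. These genes are dim, and 2 of them, Bmp8a and Gdf5, averaged below an intensity of 16.

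Among 10 other BMP and activin receptors and co-receptors 0 passed, and the median was -0.04. Of these, 2 read lower, Acvr2b and Acvr2a, and 0 read higher at an unadjusted p under 0.05. Acvr2a had a difference of -0.17 without overlap (limma adjusted p = 0.268). Acvr2b, a type II receptor gene, read 91.2, 79.1 and 88.0 in mutant and 123, 101 and 114 in wild-type brains, lower in all 3 mutant arrays (log2 difference -0.33, limma adjusted p = 0.209). Tmem100, an endothelial membrane protein gene induced by BMP9 signalling, had a difference of -0.33 with overlapping groups (limma unadjusted p = 0.104).

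Of 11 other Smads and Smad regulators 0 passed, with a median of -0.02. At an unadjusted p under 0.05, 2 read higher and 1 lower, the lower one being Ski at -0.29 without overlap. The largest differences were those of 2 inhibitors. Lemd3, an inner nuclear membrane protein that binds receptor Smads and dampens their signals, read 222, 228 and 242 in mutant and 151, 159 and 187 in wild-type brains (log2 difference 0.45, limma adjusted p = 0.0851). Tob1, an antiproliferative protein that represses BMP Smads, read 288, 304 and 258 in mutant and 210, 189 and 218 in wild-type brains (log2 difference 0.43, limma adjusted p = 0.0837). Both were higher in all 3 mutant arrays, and both lay closer to the threshold than any member.

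Secreted antagonists had estimates of both signs, with 0 of 10 past the threshold and a median of -0.04. Sostdc1, a BMP and Wnt antagonist, had a log2 difference of 0.38 with 60.8 to 80.5 in mutant and 47.1 to 57.4 in wild-type brains. Twsg1, which binds BMPs together with chordin, had -0.29 with 177 to 207 in mutant and 230 to 250 in wild-type brains. Of 9 other BMP-responsive transcription factor genes 0 passed, with a median of 0.01 that became -0.05 with median centring. Zeb2, a Smad-binding repressor, read 345, 380 and 377 in mutant and 236, 264 and 299 in wild-type brains (log2 difference 0.45, limma adjusted p = 0.0884). Gata2 had a difference of 0.30.

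The helix-loop-helix factors that Id proteins hold off DNA, or those that pair with these, had 0 of 11 past the threshold and a median of 0.09, or 0.03 with median centring. Tcf12, an E protein that Id proteins bind, read 823, 720 and 681 in mutant and 603, 569 and 607 in wild-type brains (log2 difference 0.31, limma adjusted p = 0.142). Neurod6, a neuronal factor of the cortex, had a difference of 0.32, while its neuronal relative Neurod2 read lower, at -0.21. The summed intensity of the 12 measured genes of this list was 5443 to 5682 on mutant arrays and 5001 to 5083 on wild-type arrays. The brightest genes weigh most in this sum. Their means in mutant and wild-type brains were 1769 and 1646 for Tcf4, 1179 and 950 for Neurod6, and 741 and 593 for Tcf12. Of the 11 tested genes, 7 had an estimate above 0.

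**Figure D5:**
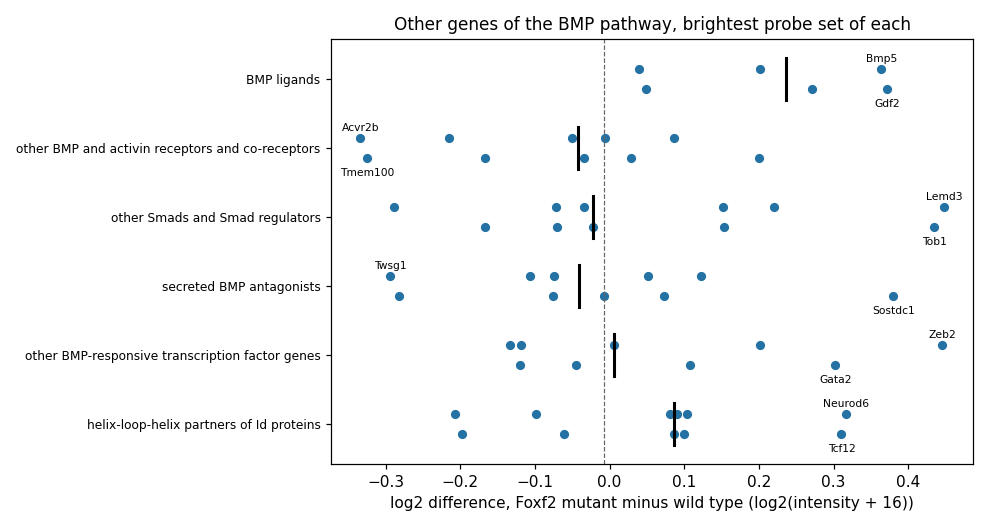
Each point is a tested gene of the other BMP pathway lists by its brightest probe set, placed by its log2 difference of Foxf2 mutant minus wild type, with black bars for list medians and a dashed line for the median of all genes tested in this way. The ligand median lies at 0.24 and the other list medians lie between -0.04 and 0.09, each lower with median centring, as is the median of all tested probe sets.

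Summed markers of other cell types are given beside these values, and their part in them was not tested. Radial glia and astrocyte markers summed to 7805 to 8132 on mutant arrays and 6804 to 7518 on wild-type arrays, with Vim past the threshold on 1 of 3 probe sets (log2 difference 0.45, limma adjusted p = 0.0435; -0.03 and 0.21 on the others). Fabp7 and Vim made up most of this sum, and without Vim it was 6109 to 6500 on mutant arrays and 5521 to 6316 on wild-type arrays, with overlap. Of the 10 genes 6 had an estimate above 0 and 4 below, among these the progenitor markers Nes at -0.30 (limma unadjusted p = 0.00918, adjusted p = 0.207) and Pax6 at -0.17. Choroid plexus and ependymal markers, known with the meninges for BMP ligand expression, summed to 6941 to 7309 on mutant and 6119 to 6892 on wild-type arrays, with 0 of 8 past the threshold. Ttr alone, with means of 6549 in mutant and 6069 in wild-type brains, made up most of this sum, and without it the markers summed to 521 to 578 on mutant and 378 to 571 on wild-type arrays, with overlap. The sums of the next lists overlapped between groups, with 1592 to 2014 in mutant and 1584 to 1739 in wild-type brains for meninges and fibroblasts. For pericytes and mural cells the sums were 1399 to 1678 in mutant and 1540 to 1850 in wild-type brains. Of their 9 tested markers 0 passed the threshold. At an unadjusted limma p under 0.05 there were 2, both lower and without overlap, Atp13a5 at -0.51 and Pdgfrb at -0.25, beside 13.6% of all genes tested in this way. For the oligodendrocyte lineage the sums were 1192 to 1562 in mutant and 1097 to 1498 in wild-type brains. For microglia they were 648 to 704 in mutant and 593 to 694 in wild-type brains, and for erythroid cells 80.7 to 328 in mutant and 152 to 243 in wild-type brains. Of the 8 microglial markers 1 was at an unadjusted limma p under 0.05, Lyz2, higher at 0.41.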

How the data were processed

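The deposited table holds MAS5 intensities on a linear scale. Their trimmed mean, without the lowest and highest 2% of values, was 100 on each array, as computed from the values; the scaling step itself is not given in the sources used here. MAS5 is named, without a version, in the submitters' processing notes. They were not normalized again. After removal of 64 controls from the 45101 probe sets, 45037 entered the fit, 34945 of them annotated to 1 gene. In R 4.3.3 with limma 3.58.1, log2(intensity + 16) was fitted with lmFit and eBayes with a mean-variance trend, two-sided. Benjamini-Hochberg adjustment covered the 27022 probe sets at or above the 40th percentile of the mean log2 value. Ratios between probe sets of 1 gene were compared by exact permutation of arrays. The fit was tested on simulated data. All probe sets of the members are named. Of each other pathway and marker list, members past the threshold or otherwise the 2 tested genes with the largest absolute difference are named, marker genes only beside results. Neurod2, Eif2s3y, Kdr, Cdh5, Emcn, Pecam1, Tie1, Fabp7, Nes, Pax6 and Ttr were named after their values were seen. Also outside this rule are Acvr2a, Ski, Tek, Esam, Flt1, Xist, Tcf4, Pdgfrb and Gad1, and Bmp8a and Gdf5, named for being dim. The members and lists were chosen with earlier results of these data known. Alternatives covered offset, filter, scaling, variance prior, array weights, replicate block, 1 probe set per gene and each array left out. The number of arrays limits the precision.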

Additional observations from a re-analysis of the deposited data

Results flagged for a closer look

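Control probe sets, which the comparison leaves out, read higher on all 3 mutant arrays than on any wild-type array in 5 of 7 families, taking the mean of a family on the log2 scale. The mutant over wild-type folds with the offset of 16 were 1.20 for 18S ribosomal RNA, 1.26 for the B2 repeat, 1.07 for bioC, 1.10 for bioD and 1.10 for cre. The last 3 are spikes added to the sample. Each had an exact permutation p of 0.1, the smallest possible with 3 arrays against 3. Their part in the values of the BMP pathway genes was not tested.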

How the results depend on the processing

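Over 17 alternatives, 0 member probe sets passed the threshold except with the replicate block, which called 1, Id2 1435176_a_at (adjusted p = 0.0168; over all alternatives 0.0168 to 0.374, with log2 differences of 0.42 to 0.64). Same-numbered mutant and wild-type arrays had correlations of their deviations of 0.186, 0.134 and 0.0917, each array correlating best with its own number. The highest between arrays of different numbers was 0.0518. The labels name no pairing, so the main fit does not take the numbers as pairs, and the Id2 call depends on this choice. The Id4 1450928_at difference ranged from 0.21 to 0.30, with adjusted p of 0.0822 to 0.366. The count over all probe sets, 105 as reported, was 181 and 64 with offsets of 1 and 64, 52 without a filter, 167 with a filter at the 60th percentile, 56 with median centring, 0 without the variance trend, 220 with the block, 12 with 1 probe set per gene and 0 to 34 leaving out an array, with 0 without mutant array 2 or 3 or wild-type array 1 or 2, 28 without mutant array 1 and 34 without wild-type array 3. Member probe sets at an unadjusted p under 0.05, 5 of 24 as reported, were 8 of 24 with median centring, against 16.6% of all tested. With 1 probe set per gene they were 3 of the 10 kept, against 13.6% of all tested. Leaving out an array gave 3 to 5 of 24, against 9.13% to 14.5% of all tested, with 3 without mutant array 2 or 3 or wild-type array 1 or 3. Member probe sets without overlap, also 5 of 24, were 3 of the 19 kept at the 60th percentile, against 22.5% of all tested. With 1 probe set per gene they were 3 of 10, against 20.9%, and with median centring 9 of 24, against 23.2%. Leaving out an array gave 6 to 10 of 24, against 27.5% to 33.6% of all tested, with 10 without wild-type array 2 and 8 without mutant array 1 or wild-type array 3. Without mutant array 3 and wild-type array 3 together, chosen after seeing the data, 0 of all probe sets passed the threshold. Of the 23 member probe sets kept, 2 were at an unadjusted p under 0.05, both higher, against 10.1% of all tested. Without overlap there were 10 of the 23, against 42.9% of all tested. Of 24 tested probe sets, 15 kept their sign under every alternative run, and 9 with small differences turned.
Quantile normalization turned Id2 1453596_at to -0.038, Id4 1423259_at to -0.012 and Bmpr1a 1451729_at to -0.044, and median centring turned them to -0.052, -0.035 and -0.029, and Bmpr1a 1425492_at to -0.011. Without both arrays of replicate 3, Id2 1453596_at turned to -0.024, Smad1 1448208_at to 0.011 and Bmpr2 1434310_at to 0.030. Leaving out 1 array turned some differences, with ranges of -0.15 to 0.13 for Id2 1453596_at, -0.040 to 0.074 for Id4 1423259_at, -0.10 to 0.073 for Smad1 1416081_at and -0.022 to 0.019 for Bmpr2 1434310_at. In Bmpr1a they were -0.15 to 0.040 for 1425493_at, -0.12 to 0.031 for 1425494_s_at and -0.078 to 0.12 for 1451729_at. The cause was not tested. The number of arrays limits the precision of all of these.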
